A study of Rattus norvegicus with 10 samples.

Results

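This account describes 1859 of the 52431 H3K9me3 peaks called in RCS, a cartilage tumour line of the rat. They were chosen by measured values: each overlapped an H3K4me1 peak by 1 bp or more and met no H3K27ac peak. They are called dual-marked peaks here. The marks come from separate libraries, so the name says that peaks of both lists lie at one place and not that both marks sit on one nucleosome or in one cell. Chromatin immunoprecipitation with sequencing was done once for each of 6 targets, SOX9, SOX6, H3K27ac, H3K4me1, H3K4me3 and H3K9me3, each in RCS cells for which the labels name no treatment. A further 4 libraries are inputs, made without an antibody, of which 1 is labelled as the input of H3K4me1, H3K4me3 and H3K9me3 together. With 1 library per antibody no value has a replicate error, and every interval below covers counting error only.

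H3K9me3 is the mark of compact, silenced chromatin, laid down over repeats and silenced genes and read by HP1 proteins. H3K4me1 is found at enhancers, both active and inactive ones. H3K27ac separates these, since it is added to enhancers and promoters in use, and H3K4me3 marks mainly promoters. A place with H3K4me1 and no H3K27ac is commonly called a primed or inactive enhancer. SOX9 directs chondrocyte differentiation, and SOX6 acts with it on cartilage genes.

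The membership rule used the H3K9me3, H3K4me1 and H3K27ac lists, so values from these lists are given as a description with no test. The SOX9, SOX6 and H3K4me3 lists were not used by the rule. Of all H3K9me3 peaks, 3.55% were dual-marked. H3K4me1 was met by 9.44% of all H3K9me3 peaks and H3K27ac by 9.01%. For comparison, the 3088 peaks that met both H3K4me1 and H3K27ac are called triple-marked, and the 45850 that met neither are called H3K9me3-only. H3K4me1 was present at 65.4% of the 4722 H3K9me3 peaks with H3K27ac, and at 3.90% of the 47709 without it. The size of the set depends on how H3K4me1 is read: the share was 2.33% where H3K4me1 had to cover 50% of the H3K9me3 peak, and 1.25% where only H3K4me1 peaks above their median score counted.

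The overlap was rarely a touch at the edge. H3K4me1 covered a median of 542 bp of a dual-marked peak (quartiles 379.5 and 659.5 bp) and a median of 67.2% of its length (38.1% and 93.6%). Overlaps of 100 bp or more made up 94.1% of the set, and 15.2% of the peaks lay wholly inside H3K4me1. The centre of the H3K9me3 peak lay under H3K4me1 in 69.7% of cases, and both centres lay inside the other peak in 56.3%. The distance between the centres had quartiles of 91 and 618 bp. In triple-marked peaks H3K4me1 covered more, a median of 649 bp or 88.7% of the H3K9me3 peak, and 31.8% lay wholly inside it. By other measures the dual-marked pairs were closer. The distance between centres had a median of 279.5 bp in dual-marked and 395.75 bp in triple-marked peaks. The overlap took up 50% or more of both peaks in 49.7% and 41.5%. Both measures depend on peak width, which was not matched. H3K4me1 peaks that met dual-marked peaks had a median width of 691 bp without H3K27ac and 2041 bp with it. Those that met only triple-marked peaks had a median of 1210 bp.

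**Figure D1:**
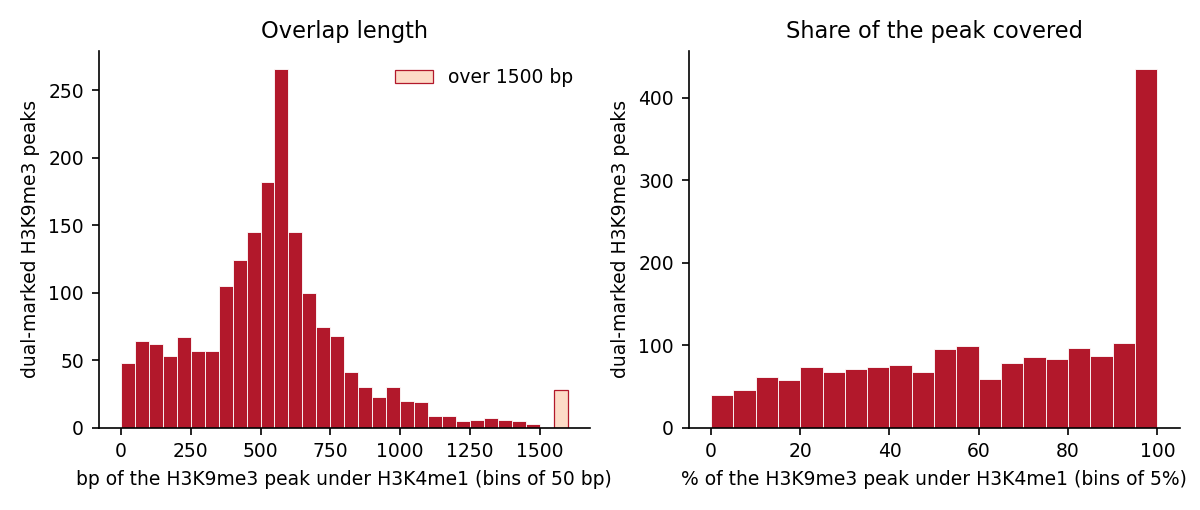
Left, bp of each of the 1859 dual-marked H3K9me3 peaks covered by H3K4me1 peaks, in bins of 50 bp, with overlaps over 1500 bp in 1 pale bar. Right, the same overlap as a percentage of the H3K9me3 peak in bins of 5%. The median overlap is 542 bp and the median share covered is 67.2%.

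At the limits of the rule, 48 dual-marked peaks shared 50 bp or less with H3K4me1, with 1 peak at 1 bp. Just outside it, 83 H3K9me3-only peaks had an H3K4me1 peak within 50 bp, and 2 of these touched one without a shared base. On the side of H3K27ac, 30 dual-marked peaks lay within 50 bp of an H3K27ac peak, while 25 triple-marked peaks shared 50 bp or less with one. The nearest dual-marked peaks were at chr9:95011605-95012122, with a gap of 2 bp, and at chr4:27767552-27768142 and chr16:47773310-47773959, each with a gap of 4 bp (all coordinates on rn5). In all 3, the H3K4me1 peak itself ran on into H3K27ac.

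Dual-marked peaks were a little wider and higher-scoring than H3K9me3-only peaks and less so than triple-marked ones. The median width was 769 bp (quartiles 600.5 and 1110.5 bp) for dual-marked, 843 bp for triple-marked and 691 bp (561 and 930 bp) for H3K9me3-only peaks. The score is the authors' own value for each peak, on a scale not given, and its median was 101 (65.7 and 203), 118 and 85.7 in these classes. A dual-marked peak stood at a median percentile of 57.7 in the H3K9me3 list. The share of dual-marked peaks was 2.59% in the narrowest quintile of H3K9me3 peaks and 4.89% in the widest.

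The 10 dual-marked peaks with the most sequence under H3K4me1 carried 1842 to 2893 bp of it. The longest stretch lay at chr1:28106119-28109944, where 2 H3K4me1 peaks covered 75.6% of an H3K9me3 peak of 3826 bp, 60.8 kb from the nearest H3K27ac peak. The next 2 met 3 H3K4me1 peaks each. That at chr7:99542256-99546493 had 2788 bp under H3K4me1 and lay 19 bp from H3K27ac. That at chr9:7793561-7798139 had 2620 bp and lay 43.2 kb from it. At chr7:114338927-114341092, an H3K9me3 peak of 2166 bp lay wholly inside an H3K4me1 peak of 3775 bp, and it met 1 SOX9 and 2 SOX6 peaks. The other 6 lay at chr19:37449161-37452448, chr10:101310609-101318142, chr9:46362129-46364839, chr9:87824011-87825996, chr7:103224851-103226859 and chr1:87990564-87995193. Of these 10 peaks, the one on chromosome 19 met H3K4me3.

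The 5 highest-scoring dual-marked peaks and the 5 widest met H3K4me1 peaks at percentiles 0.843 to 52.1 of the H3K4me1 list. For each, the H3K4me1 peak with the largest overlap was taken, and ties in score were cut by bp under H3K4me1. The highest score, 3206, belonged to a peak of 7746 bp at chr7:23165225-23172970. H3K4me1 covered 14.9% of it, and the larger of its 2 H3K4me1 overlaps was with a peak of 585 bp at percentile 3.22 of the H3K4me1 list. Next came peaks that share the score 3100, of which the 4 with most bp under H3K4me1 had 28.2% to 76.1% of their length under it. They lay at chr1:87990564-87995193, chr1:56893331-56898340, chr9:7622716-7628175 and chr9:7321154-7322967. The widest dual-marked peak, of 8581 bp, was at chrX:73902795-73911375. It was followed by 8077 bp at chr6:142806251-142814327, with 7.39% of its length under H3K4me1. The fifth in width was 6083 bp, at chr17:91068016-91074098, with 10.5%. None of the 5 highest-scoring or 5 widest peaks met SOX9, SOX6 or H3K4me3.

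SOX6, with 19355 peaks in all, met more dual-marked peaks than SOX9, with 14782, and both were less frequent there than at triple-marked peaks. SOX9 met 28 of 1859, or 1.51% (95% Wilson interval 1.04% to 2.17%), beside 0.950% of all H3K9me3 peaks. The share was 10.7% (9.65% to 11.8%) at triple-marked peaks and 0.246% (0.205% to 0.296%) at H3K9me3-only peaks. SOX6 met 54, or 2.90% (2.23% to 3.77%), beside 1.09% of all H3K9me3 peaks. Its share was 10.9% (9.86% to 12.1%) at triple-marked and 0.321% (0.273% to 0.377%) at H3K9me3-only peaks. Both factors met 10 dual-marked peaks (0.538%, beside 0.401% of all H3K9me3 peaks), SOX9 without SOX6 met 18, SOX6 without SOX9 met 44, and 1787 met neither factor.

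Dual-marked minus triple-marked, the difference was -9.18 percentage points for SOX9 (Newcombe 95% interval -10.4 to -7.95) and -8.01 points for SOX6 (-9.34 to -6.65). SOX9 was lower on all 21 chromosomes and SOX6 on 18. Dual-marked minus H3K9me3-only, the difference was 1.26 points for SOX9 (0.795 to 1.92) and 2.58 points for SOX6 (1.91 to 3.45), with the dual-marked share higher on 12 chromosomes for SOX9 and 17 for SOX6. When the H3K9me3-only peaks were weighted to the width quintiles of the dual-marked peaks, their shares were 0.268% for SOX9 and 0.354% for SOX6. Among H3K9me3 peaks above their median score SOX9 met 0.949% of dual-marked peaks, against 0.342% of H3K9me3-only peaks. Where only SOX peaks above the median of their list counted, the shares were 0.699% and 0.0153% for SOX9. For SOX6 they were 1.13% and 0.0458%. Where only H3K4me1 peaks above their median counted, SOX6 met 4.58% of dual-marked peaks and 0.363% of the other peaks without H3K27ac. These others are the H3K9me3-only peaks together with the dual-marked peaks that fell out of the set under this setting.

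H3K4me3 met 79 dual-marked peaks, 4.25% (3.42% to 5.26%), beside 1.72% of all H3K9me3 peaks. The share was 15.1% (13.8% to 16.4%) at triple-marked and 0.257% (0.215% to 0.308%) at H3K9me3-only peaks. The difference was -10.8 points (-12.4 to -9.22) from triple-marked peaks, with a lower share on all 21 chromosomes. It was 3.99 points (3.16 to 5.01) from H3K9me3-only peaks, with a higher share on 17. Of the 79 H3K4me3 peaks concerned, 42 had their centre inside the dual-marked peak, and 32 met H3K27ac elsewhere along their length. Their median score was 383, in a list whose median is 1674. With only H3K4me3 peaks above their median score, H3K4me3 met 1.67% of dual-marked and 0.0414% of H3K9me3-only peaks. With only H3K4me1 peaks above theirs, it met 7.02% of dual-marked peaks and 0.321% of the other peaks without H3K27ac. These others again include the dual-marked peaks that fell out of the set. A SOX peak and H3K4me3 stood together at 3 dual-marked peaks, or 0.161% (0.0549% to 0.473%), beside 0.271% of all H3K9me3 peaks. The share was 3.95% (3.32% to 4.70%) at triple-marked and 0.00436% (0.00120% to 0.0159%) at H3K9me3-only peaks.

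**Figure D2:**
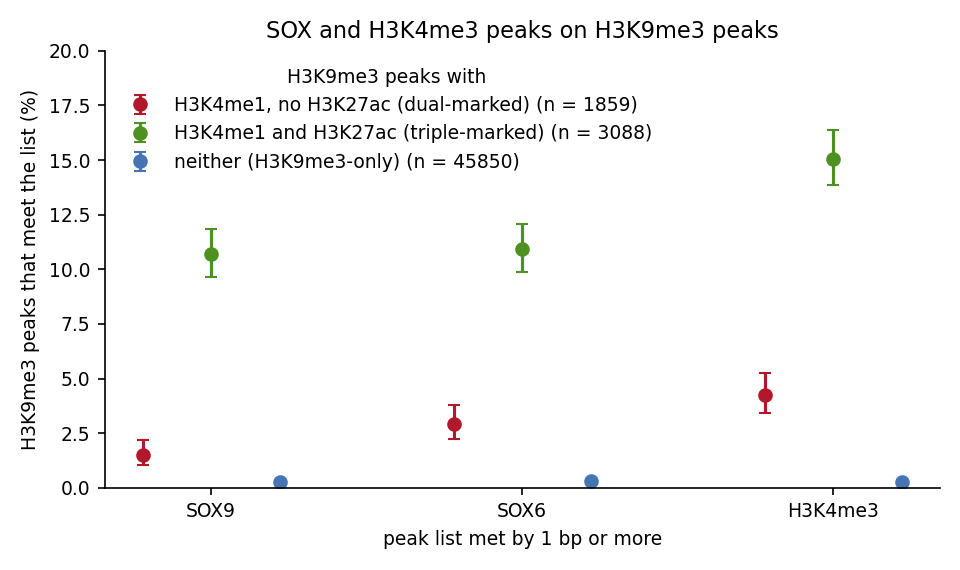
Share of H3K9me3 peaks that meet a SOX9, SOX6 or H3K4me3 peak, for 1859 dual-marked, 3088 triple-marked and 45850 H3K9me3-only peaks. Points are shares and bars are 95% Wilson intervals. Dual-marked peaks lie between the other classes for each list, at 1.51%, 2.90% and 4.25%.

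The SOX peaks on dual-marked peaks had medians below those of their own lists, with single high-scoring peaks among them. The 29 SOX9 peaks had a median score of 75.5 (quartiles 65.5 and 124), and the whole SOX9 list has a median of 90.3. The 55 SOX6 peaks had a median of 82.6 (58.6 and 145), beside 104 for the whole list. The centre of the SOX peak lay inside the H3K9me3 peak for 20 of the 29 SOX9 and 40 of the 55 SOX6 peaks. All 29 SOX9 and 53 of the 55 SOX6 peaks reached the stretch covered by both H3K9me3 and H3K4me1. H3K27ac met 2 of these SOX9 and 5 of these SOX6 peaks, outside the dual-marked peak.

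The 10 dual-marked peaks with both factors were ordered by the sum of the ranks of their SOX scores. The first lay at chr8:129321004-129322820, with a SOX9 score of 734 and a SOX6 score of 194 (percentile 71.4). It is an H3K9me3 peak of 1817 bp at percentile 97.2 of its list, in a run of 9, and 24.9 kb from H3K27ac. At chr3:2066573-2067386 SOX6 scored 654 (percentile 93.5 of its list) and SOX9 scored 124 (percentile 62.6). The third, at chr10:15335379-15335892, had scores of 136 for SOX9 and 170 for SOX6. At chr4:27767552-27768142, SOX9 scored 470 (percentile 90.5) and SOX6 scored 60.1 (percentile 19.0). In the remaining 6 the SOX9 score was 59.5 to 290 and the SOX6 score 55.0 to 237. They lay at chr3:43539727-43540358, chr3:167143232-167143633, chr9:118723055-118723695, chr9:14660688-14662565, chr11:55997876-55998460 and chr7:114338927-114341092. H3K4me3 was called at none of the 10, and 2 of them lay within 100 bp of H3K27ac.

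The same places were then read from the side of H3K4me1. The dual-marked peaks met 1857 H3K4me1 peaks, called partners here, and 5.23% of all H3K4me1 peaks met an H3K9me3 peak of any class. A single partner was the rule, with 1795 dual-marked peaks meeting 1 H3K4me1 peak, 62 meeting 2 and 2 meeting 3 or more. Of the partners, 1595 met no H3K27ac, and 262 (14.1%, 12.6% to 15.8%) met it elsewhere along their length, beside 51.0% of all H3K4me1 peaks. The rule bears on this share, since each partner was found through an H3K9me3 peak that met no H3K27ac. It is given as a description. The 262 partners with H3K27ac were wide (median 2041 bp) and stood at a median percentile of 81.0 of the H3K4me1 list. The 1595 without it had a median width of 691 bp and a median percentile of 29.6. The 43576 H3K4me1-only peaks, which met neither H3K27ac nor H3K9me3, had a median width of 757 bp and a median percentile of 32.8.

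On partners without H3K27ac the SOX shares did not differ detectably from those on H3K4me1-only peaks, while H3K4me3 was less frequent. SOX9 met 36 of 1595 partners without H3K27ac, or 2.26% (1.63% to 3.11%), and 2.18% (2.04% to 2.32%) of H3K4me1-only peaks, beside 2.18% of all H3K4me1 peaks without H3K27ac. The difference was 0.0815 points with a Newcombe interval of -0.557 to 0.944. SOX6 met 68 partners, or 4.26% (3.38% to 5.37%), and 4.42% (4.23% to 4.61%) of H3K4me1-only peaks, beside 4.41% of all H3K4me1 peaks without H3K27ac. The difference was -0.154 points (-1.06 to 0.968). Under other settings both differences varied in size and sign, and every interval included 0. With only SOX9 peaks above their median score, SOX9 met 0.940% of partners and 0.610% of H3K4me1-only peaks. The difference was 0.330 points (-0.0477 to 0.939). With only SOX6 peaks above theirs, SOX6 met 1.69% and 1.59%, a difference of 0.107 points (-0.434 to 0.874). With only H3K9me3 peaks above their median score, the difference was -0.448 points for SOX9 (-1.12 to 0.590) and -1.16 points for SOX6 (-2.13 to 0.166). In this setting 976 partners stood against 44195 other peaks. H3K4me1 peaks that met only lower-scoring H3K9me3 peaks were counted among these others, so they are not all H3K4me1-only as defined above. Without chromosomes 7, 9, 11 and 16 it was 0.396 points for SOX9 (-0.464 to 1.62) and -0.530 points for SOX6 (-1.60 to 0.899).

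H3K4me3 met 55 partners without H3K27ac, or 3.45% (2.66% to 4.46%), and 5.73% (5.52% to 5.95%) of H3K4me1-only peaks, beside 5.65% of all H3K4me1 peaks without H3K27ac. The difference was -2.28 points (-3.10 to -1.25), with the partner share lower on 17 of 21 chromosomes. Weighted to the width quintiles of the partners, the H3K4me1-only share was 5.68%. When an overlap had to take up 50% of the narrower peak, the shares were 3.20% and 4.17% and the difference of -0.975 points had an interval that includes 0 (-1.76 to 0.0246).

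**Figure D3:**
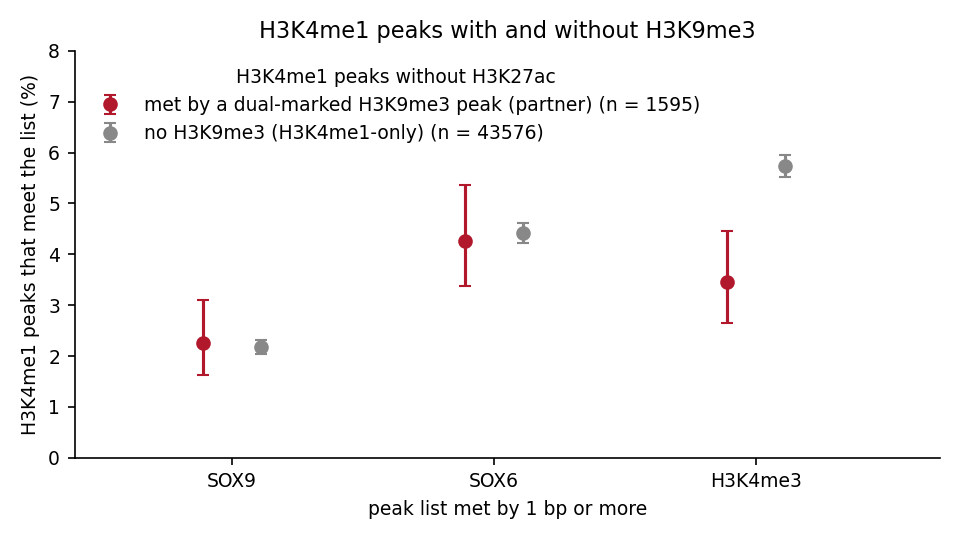
Share of H3K4me1 peaks without H3K27ac that meet a SOX9, SOX6 or H3K4me3 peak, for 1595 partners of dual-marked peaks and 43576 H3K4me1-only peaks. Points are shares and bars are 95% Wilson intervals. The classes lie close together for SOX9 (2.26% and 2.18%) and SOX6 (4.26% and 4.42%), and partners are lower for H3K4me3 (3.45% and 5.73%).

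Dual-marked peaks lay near acetylated chromatin. The gap to the nearest H3K27ac peak had a median of 4815 bp (quartiles 1042 and 19636.5 bp), against 35005 bp (8896 and 138476 bp) for H3K9me3-only peaks. A gap under 1 kb was seen for 24.3% of dual-marked and 3.90% of H3K9me3-only peaks, and a gap of 100 kb or more for 8.28% and 30.7%. The medians were 13298 bp and 69063 bp when only H3K27ac peaks above their median score counted. They were 9233 bp and 39043 bp when peaks within 1 kb of H3K27ac were left out. With only H3K4me1 peaks above their median they were 1922 bp and 33649.5 bp. In that setting dual-marked peaks that fell out of the set were counted with the H3K9me3-only peaks. Read from the H3K4me1 side the classes were close at the median, with 6948 bp for partners without H3K27ac and 7209 bp for H3K4me1-only peaks. They parted at long range, where 9.72% of partners and 5.27% of H3K4me1-only peaks had a gap of 100 kb or more. The distances to SOX peaks had a like order among H3K9me3 peaks. The median gap to the nearest SOX9 peak was 29661 bp for dual-marked, 3641.5 bp for triple-marked and 86252.5 bp for H3K9me3-only peaks, and to the nearest SOX6 peak 22068 bp, 3188.5 bp and 70912.5 bp.

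**Figure D4:**
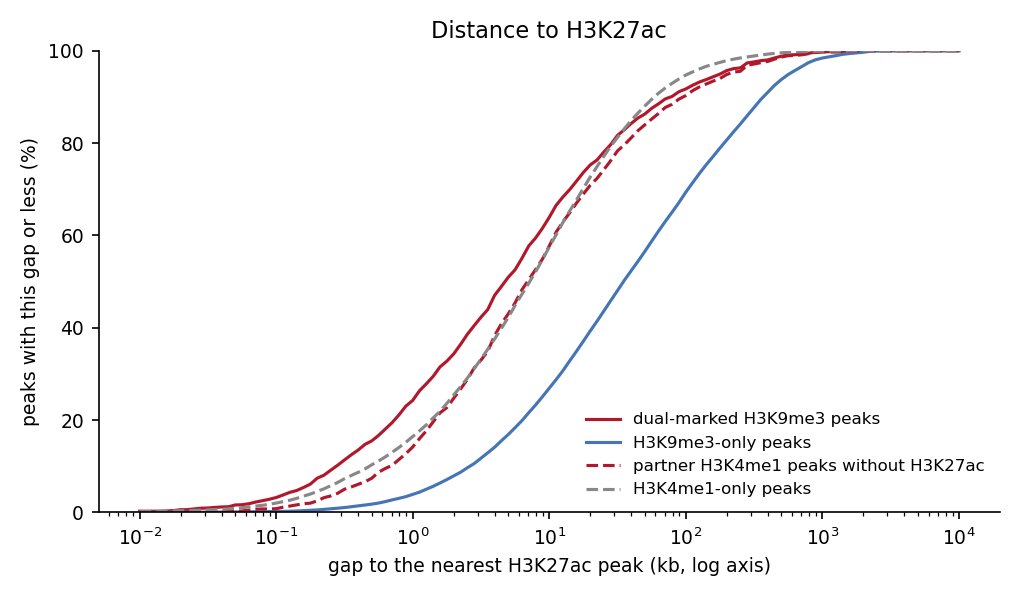
Cumulative share of peaks by the gap to the nearest H3K27ac peak, in kb on a log axis, for dual-marked and H3K9me3-only peaks (solid lines) and for partner and H3K4me1-only peaks (dashed lines). The medians are 4815 bp for dual-marked and 35005 bp for H3K9me3-only peaks, and 6948 bp for partners and 7209 bp for H3K4me1-only peaks.

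In 268 dual-marked peaks (14.4%) a partner reached H3K27ac elsewhere, and the gap had a median of 258 bp (115 and 641.5 bp). In the other 1591 no partner did, and the median gap was 6945 bp (2135 and 26702.5 bp). A partner that reaches H3K27ac sets a short gap by construction, and single peaks of the classes overlap in their gaps. H3K4me3 met 11.2% (7.95% to 15.5%) of the 268 and 3.08% (2.34% to 4.05%) of the 1591. For SOX6 the shares were 4.85% (2.86% to 8.12%) and 2.58% (1.91% to 3.48%), and for SOX9 they were 1.12% (0.381% to 3.24%) and 1.57% (1.07% to 2.31%), with intervals that overlap for both factors. The dual-marked peak farthest from H3K27ac lay at chr7:5317985-5319394, with a gap of 1947773 bp. It had 77.9% of its length under H3K4me1 and met H3K4me3. The next lay close by at chr7:5310588-5311602, and the third at chr12:35080916-35081942, with a gap of 1557344 bp and H3K4me3.

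H3K9me3 peaks were joined into runs where the gap between neighbours was at most 5 kb, and 72.1% of dual-marked peaks belonged to a run of 2 or more, beside 65.0% of all H3K9me3 peaks. Runs of 5 or more held 34.7%, beside 26.9% of all. Runs of 20 or more held 4.30% of dual-marked and 6.28% of H3K9me3-only peaks, beside 5.99% of all. For these long runs the dual-marked share was above the H3K9me3-only share on 7 chromosomes, below it on 8 and equal on 6. Triple-marked peaks were in runs of 2 or more in 76.2% of cases. The gap to the next H3K9me3 peak had a median of 1025 bp (278 and 6018.5 bp) for dual-marked and 1512 bp (331 and 13063 bp) for H3K9me3-only peaks. Run membership moved with the H3K9me3 score, with 56.6% of dual-marked peaks of the lowest and 83.3% of the highest score quintile in a run. Weighted to the score quintiles of the dual-marked peaks, 65.7% of H3K9me3-only peaks were in a run. Where H3K4me1 peaks were limited to those above their median score, the shares in a run were 66.0% and 64.0%. The second share there also covers dual-marked peaks that fell out of the set.

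The nearest H3K9me3 peak of a dual-marked peak was most often H3K9me3-only, in 65.3% of cases (63.1% to 67.4%). It was itself dual-marked for 19.8% (18.0% to 21.7%) of dual-marked peaks, 6.10% of peaks with H3K27ac and 2.60% (2.46% to 2.75%) of H3K9me3-only peaks. It met H3K27ac for 14.9% of dual-marked peaks, 49.8% of peaks with H3K27ac and 4.58% of H3K9me3-only peaks. The classes differ in size, with 3.55% of all H3K9me3 peaks dual-marked and 9.01% with H3K27ac. The same-class shares of 19.8% and 49.8% are therefore not directly comparable. Some dual-marked neighbours share their H3K4me1 peak, since 67 H3K4me1 peaks met 2 or more dual-marked peaks. Of the 9742 runs of 2 or more, 946 held a dual-marked peak, 236 held 2 or more of them and 33 were made of dual-marked peaks throughout. Among dual-marked peaks in runs, 39.8% shared the run with an H3K9me3 peak that met H3K27ac. Another such peak was in the run for 76.6% of the peaks with H3K27ac in runs and for 12.2% of H3K9me3-only peaks in runs. The ends of runs held no larger part of them. In runs of 3 or more, 35.2% (32.3% to 38.2%) stood first or last, beside 37.0% of all H3K9me3 peaks in such runs.

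The run with most dual-marked peaks lay at chr7:41159267-41210167. It held 26 H3K9me3 peaks in 50.9 kb, of which 15 were dual-marked, and 3 met H3K27ac. H3K9me3 covered 70.0% of it, H3K4me1 49.9% and H3K27ac 10.5%, and it held 1 SOX6 peak, 0 SOX9 peaks and 0 H3K4me3 peaks. The next, at chr19:294821-374594, had 13 dual-marked among 44 H3K9me3 peaks in 79.8 kb and no SOX peak. The runs on chromosome 10 were richer in H3K27ac. The one at chr10:101252751-101347530 had 10 dual-marked and 29 acetylated among 50 H3K9me3 peaks, with H3K27ac over 41.8% of its length and 6 SOX9 and 7 SOX6 peaks. The one at chr10:95333773-95427355 had 9 dual-marked and 12 acetylated among 49, with 5 SOX9 and 7 SOX6 peaks. The run at chr7:62126488-62149740 was short, with 8 dual-marked peaks among 10 in 23.3 kb, H3K4me1 over 60.3% of its length and no SOX peak.

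Chromosomes differed in the share of their H3K9me3 peaks that were dual-marked. Chromosome 7 had 298 of 4759, or 6.26% (5.61% to 6.99%), chromosome 19 had 105 of 1944, or 5.40% (4.48% to 6.50%), with 4.91% and 4.88% for chromosomes 16 and 9. At the other end, X had 6 of 684, or 0.877% (0.403% to 1.90%), chromosome 20 had 1.33% and chromosome 12 had 1.47% (1.15% to 1.88%). Chromosome 12 also had the densest H3K9me3, with 76.3 peaks per Mb, and its 61 dual-marked peaks came to 1.12 per Mb. The density of dual-marked peaks was highest on chromosome 7, at 2.08 per Mb, and lowest on X, at 0.0388 per Mb.

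This share moved with the input, as did the share of H3K9me3 peaks that met H3K27ac. Input reads of the methylation marks without a mismatch per Mb, relative to the median chromosome, were 2.09 for chromosome 16, 2.08 for 9, 1.93 for 7 and 1.64 for 11, and 1.31 or less for the others. Those 4 chromosomes held 719 dual-marked peaks, 38.7% of them, and 26.2% of all H3K9me3 peaks. The dual-marked share was 5.24% (4.88% to 5.63%) there and 2.94% (2.78% to 3.12%) on the other 17. Chromosome 19 stood out from this order, with a share of 5.40% at an input of 0.998. So did chromosome 11, with a share of 3.59% at an input of 1.64. Across the 21 chromosomes, which share a library and its depth, Pearson's r between the input and the share was 0.734 and Spearman's rho 0.687. For the share of H3K9me3 peaks with H3K27ac they were 0.754 and 0.591, and that share was also highest on chromosomes 7, 16, 9 and 11, at 14.1%, 13.3% and 12.8% on the first 3 of these. Between the dual-marked share and the share with H3K27ac, r was 0.629 and rho 0.677. The part of the input in these shares was not tested. On the other 17 chromosomes SOX6 met 2.54% of dual-marked and 0.300% of H3K9me3-only peaks, SOX9 1.84% and 0.228%, and H3K4me3 4.39% and 0.268%, so each order was present without the 4 chromosomes.

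**Figure D5:**
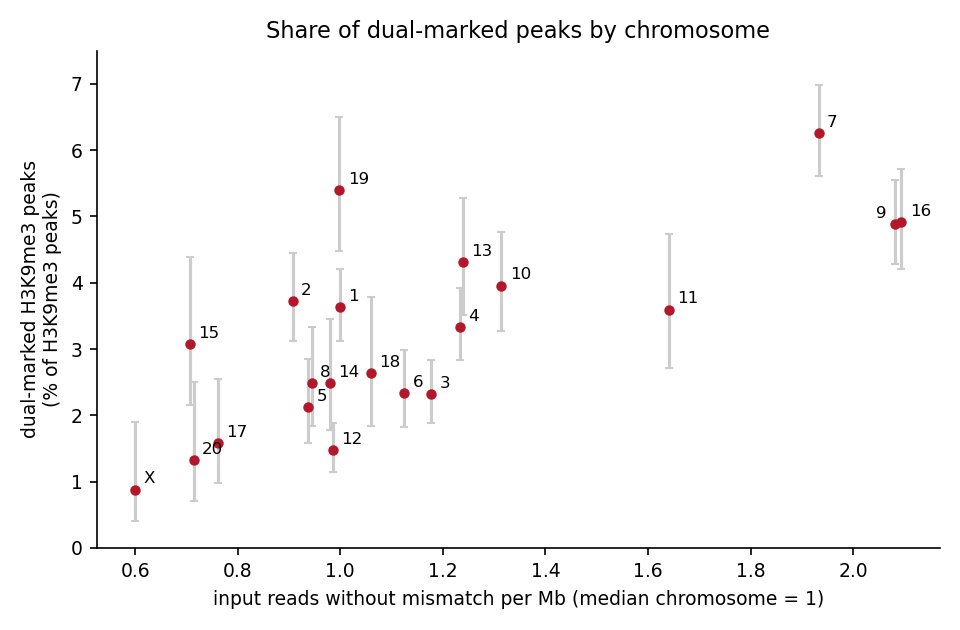
Share of H3K9me3 peaks that are dual-marked on each of 21 chromosomes (labelled points, with 95% Wilson intervals) against the input of the methylation marks, as reads without a mismatch per Mb relative to the median chromosome. Chromosomes 7, 9 and 16 are high on both axes (6.26%, 4.88% and 4.91%), and chromosome 19 is high in share (5.40%) at an input of 0.998.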

How the data were processed

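Peak lists, 1 per immunoprecipitated library, were deposited by the authors with a score for each peak. Per the file contents the peak names carry the name of MACS, and CASAVA 1.8 and the genome build rn5 are named per the submitters' processing notes. Of the aligner, caller settings, read filters and the input set against each list, nothing is given in the sources used here. The scale of the deposited score is not given, so it was used only within a list, and depth of the immunoprecipitated libraries was not used here. Inputs were deposited as raw read counts per chromosome, unnormalised per the file headers, and held 36873004 to 131858579 reads, of which 53.4% to 53.5% aligned.

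Interval starts count from 0 in the files and from 1 in the text. The last peak end on a chromosome stood in for its length. Overlap meant 1 bp or more. Shares have Wilson 95% intervals, differences of shares Newcombe intervals, and medians order-statistic intervals. Neighbouring peaks are not independent, so these intervals understate how far a repeat of the experiment could differ. Quintiles of width and score were formed within a list. No test across libraries was possible with 1 library per antibody. Python 3.11.15, numpy 2.4.6, pandas 2.3.3 and scipy 1.17.1 were used, and the overlap code was tested on simulated intervals and checked against bedtools 2.31.1.

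Regions named are, by rule, the 10 dual-marked peaks with most bp under H3K4me1, the 5 with the highest score, the 5 widest, those with both SOX factors, the 3 farthest from and 3 nearest to H3K27ac, and the 5 runs with most members, ties by bp under H3K4me1 and then position. The members and lists were chosen with earlier results of these data known. The comparisons of partners with H3K4me1-only peaks without some chromosomes or with other overlaps were chosen after seeing the data, as was leaving out chromosomes 7, 9, 11 and 16. An rn5 genome and annotation were not used here, so regions carry no gene names and no sequence is shown.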

Additional observations from a re-analysis of the deposited data

How the results depend on the processing

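With 1 library per antibody no replicate could be left out, and no paired analysis was possible because each group has 1 sample. The dual-marked share of all H3K9me3 peaks was 3.55% and moved beyond its interval under the 7 alternatives run: 3.34% with at least 100 bp shared, 2.33% with H3K4me1 over 50% of the peak, 4.02% among H3K9me3 peaks above their median score, 1.25% with H3K4me1 peaks above theirs, 2.69% with no H3K27ac within 1 kb, 3.72% without chromosome 12 and 2.94% without chromosomes 7, 9, 11 and 16. Among peaks above the median H3K9me3 score the SOX9 share of dual-marked peaks was 0.949%, the run share 64.8% (runs were rebuilt from the shorter list, and H3K9me3-only peaks were at 55.1%), the median gap to H3K27ac 5809 bp and the median overlap 589 bp. With H3K4me1 peaks above their median the SOX6 share was 4.58%, H3K4me3 7.02%, the run share 66.0%, the gap 1922 bp and the overlap 566 bp. With no H3K27ac within 1 kb, H3K4me3 was at 2.91% and the gap at 9233 bp. With 50% of the narrower peak shared, SOX6 was at 2.10% and H3K4me3 at 2.85%. With only peaks above the median of the list that was met, SOX9 was at 0.699%, SOX6 at 1.13% and H3K4me3 at 1.67%, and the gap to H3K27ac was 13298 bp. The median overlap was 554 bp with at least 100 bp shared, 581 bp with 50% of the peak covered and 533 bp without the 4 chromosomes. Runs joined within 1 kb and 10 kb held 49.5% and 80.6%. In all 36 alternatives for SOX9, SOX6, H3K4me3 and runs the dual-marked share was above that of H3K9me3-only peaks, and in all 8 for the gap the median was smaller. Where H3K4me1 peaks were cut at their median score, dual-marked peaks that fell out of the set were counted as H3K9me3-only. The alternatives reuse the same peaks, so their number is not independent support. Runs and gaps also come from lists that the rule used. The causes of these moves were not tested. The lower H3K4me3 share of partners lost its call with 50% of the narrower peak shared (-0.975 points, the cause was not tested) and kept it under the other 4 alternatives (-1.59 to -2.31 points). For partners, the alternative with H3K9me3 peaks above their median score counted H3K4me1 peaks that met only lower-scoring H3K9me3 peaks as H3K4me1-only. For SOX9 (-0.448 to 0.396 points) and SOX6 (-1.16 to 0.107 points) no alternative gave an interval without 0, and the sign of each varied among them.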

Other observations

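Over the 1859 dual-marked peaks, Spearman's rho between the H3K9me3 score and the score of the H3K4me1 peak with the largest overlap was -0.131, while rho between the H3K9me3 score and the width of the peak was 0.749. These describe sites of a pair of libraries that share their input, with no p. In the lowest quintile of H3K9me3 score SOX6 met 4.28% (2.57% to 7.06%) of dual-marked peaks, and in the highest 2.50% (1.47% to 4.23%), intervals that overlap.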
